A study of Mus musculus with 18 samples.

Results

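The outer membrane fusion and fission genes are a named set of 7 genes (Mfn1, Mfn2, Dnm1l, Mff, Fis1, Mtfp1 and Gdap1) among the 23420 genes of the count tables. They were chosen by symbol, by a rule that uses no measured value, though with earlier results of these data known. All 7 are in the files. Mitochondria fuse and divide all the time, and the balance sets whether they form networks or fragments. Mfn1 and Mfn2 are GTPases that tether and fuse outer membranes, while Dnm1l (Drp1) is a cytosolic GTPase that adaptors such as Mff and Fis1 bring to the outer membrane to constrict it. In the heart Mfn2 is also known for tethering mitochondria to the sarcoplasmic and endoplasmic reticulum. Mtfp1 acts in fission from the inner membrane, so the set follows the process more than the place.

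The samples analysed here were primary cardiac fibroblasts of newborn CD1 mice. All of these were driven towards induced cardiomyocytes by a retrovirus carrying Mef2c, Gata4 and Tbx5 on 1 transcript. In the second of 2 sample sets a short hairpin RNA (shRNA) was directed against no target (shNT), against Mtfr1l, a relative of the mitochondrial fission regulators (shMtfr1l), against Opa1, the GTPase of inner membrane fusion (shOpa1), or against both (the double knockdown). The labels call the 3 libraries of each group biological replicates, and titles place replicate 1 at day 7, replicate 2 at day 8 and replicate 3 at day 9 in every group, so day and replicate number cannot be told apart. The genotype entry of the shOpa1 libraries reads shOpa1, shOpa2 and shOpa3, and they were taken as 1 group from their titles and library names. The days rise with the replicate number in the same way and may also be a slip of entry. They are used here as the titles give them. No source used here says whether replicates came from separate animals or litters, so a p-value here measures no more than how far these libraries spread. The first set gives 1 shNT and 1 shMtfr1l reprogramming sample of day 7, each with 3 count columns that were summed, and no test can be made there. The title of that shMtfr1l sample states 85% knockdown. The first set also holds 4 fibroblast control samples, which were not used. No sorting of transduced cells is named.

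In the second set a library held 16205862 to 25317069 counts, and 3 counts stand for 0.117 to 0.183 counts per 1000000 (CPM, scaled with TMM). Mtfr1l lay at 69.4 to 76.7 CPM in shNT, 13.9 to 19.5 in shMtfr1l, 65.8 to 72.0 in shOpa1 and 22.8 to 31.0 in the double knockdown. Opa1 lay at 57.0 to 72.6 CPM in shNT, 70.7 to 73.4 in shMtfr1l, 6.85 to 12.6 in shOpa1 and 15.99 to 20.7 in the double knockdown, so both targets were low where the labels place their shRNA. Opa1 was 2.04-fold higher in the double knockdown than in shOpa1 (edgeR quasi-likelihood test, adjusted p = 0.00745), and the double knockdown exceeded shMtfr1l 1.66-fold in Mtfr1l (adjusted p = 5.27e-06). Each of 11 fibroblast markers held more than 3 counts in every library, as did 12 of 13 cardiomyocyte markers. Myl2, a ventricular myosin light chain, was at or under 3 counts in 1 double knockdown library. The fibroblast markers summed to between 34160.3 and 40893 CPM per library and the cardiomyocyte markers to between 1641 and 4234 CPM. In such bulk RNA, fewer cells of a type and less RNA per cell cannot be told apart.

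Per summed exon length, Fis1 was the most abundant of the 7 genes in every library. RPKM here is CPM divided by the gene's summed exon length in kilobases. On that scale the mean level of Fis1 in shNT was 93.8 ± 5.73 (SD, n = 3, as for all second-set group means). It was 51.2 ± 3.01 for Mff, 23.2 ± 2.66 for Mfn2, 22.3 ± 0.705 for Dnm1l and 9.44 ± 1.10 for Mfn1. The Dnm1l mean in shNT thus lay within 1 SD of the Mfn2 mean. Mtfp1 followed at 0.983 ± 0.248 RPKM, and Gdap1 came last at 0.116 ± 0.130. Of the 7 genes, 6 passed the filter on low counts and were tested. Gdap1 was not.

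**Figure D1:**
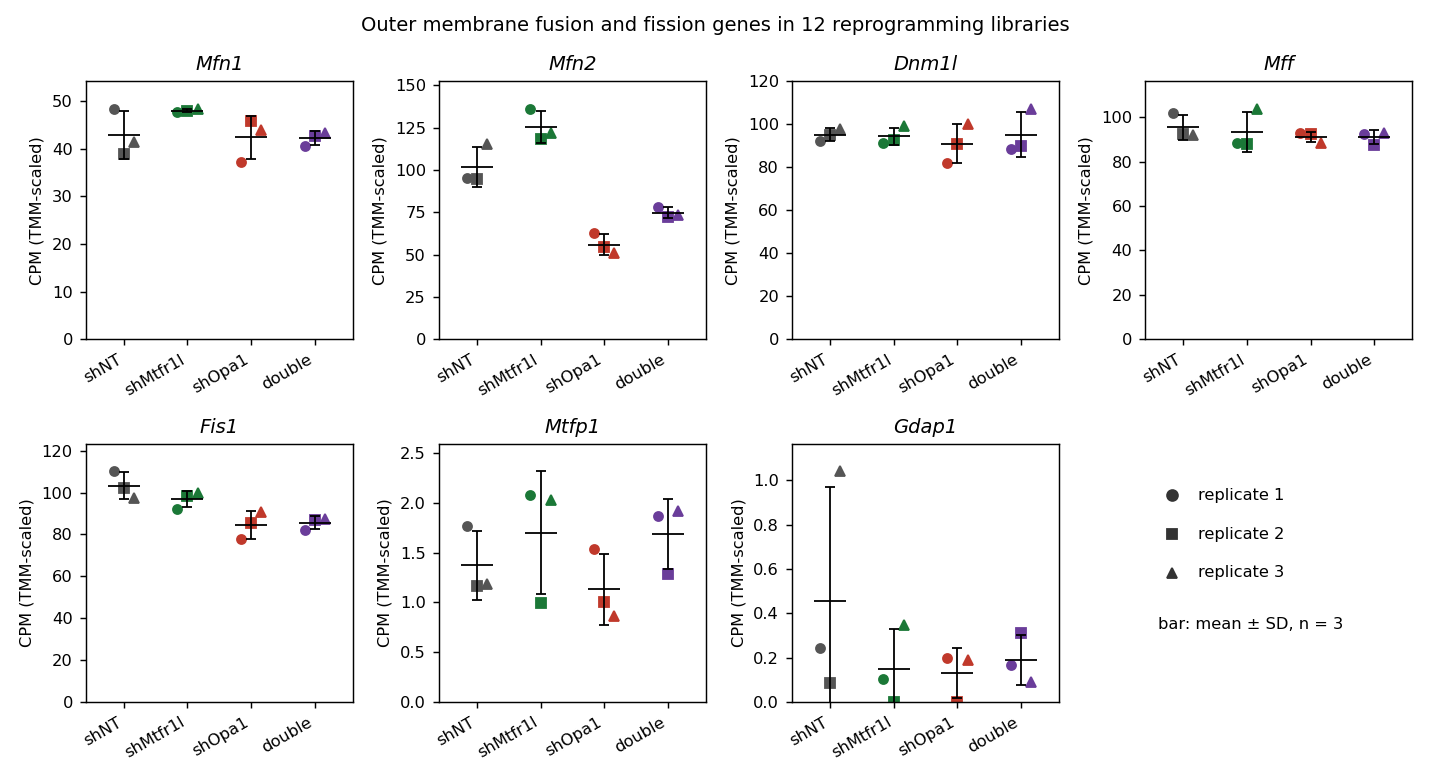
Level of each of the 7 genes in CPM (linear axis from 0) in the 12 second-set libraries by shRNA group (double is the double knockdown); circles, squares and triangles are replicates 1, 2 and 3, and bars are the mean ± SD of 3 libraries (the lower arm is cut at 0 for Gdap1). The 3 Mfn2 values of each group lie apart from those of every other group, Fis1 is lower in shOpa1 and the double knockdown than in shNT, and Gdap1 stays at or under 1.04 CPM.

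Mfn2 moved with both knockdowns, in opposite directions. It rose with shMtfr1l, fell with shOpa1 and took a level in between in the double knockdown. The call of the Mfn2 rise was lost in 5 of 24 other settings and that of the fall with shOpa1 in 0. Fis1 fell with shOpa1 and in the double knockdown. Mfn1, Dnm1l, Mff and Mtfp1 passed the test in no comparison. The bases upstream of the start sites of Mfn2, Fis1 and Mfn1 are shown because Mfn2 and Fis1 both fell with shOpa1 while Mfn1, the closest relative of Mfn2, did not pass the test. They come from RefSeq (GRCm38.p6), are written 5′ to 3′ on the gene's own strand and end just before the start site, except that the Mfn1 stretch ends before an upstream exon in GENCODE. Capitals mark a match to 1 of 9 motifs searched. The Mfn2 stretch is chr4:147904910-147905159 on the minus strand, and the RefSeq start lies 90 bases upstream of the gene's start in the count tables. The Fis1 stretch is chr5:136953025-136953274 and the Mfn1 stretch chr3:32529232-32529464, both on the plus strand.
Mfn2: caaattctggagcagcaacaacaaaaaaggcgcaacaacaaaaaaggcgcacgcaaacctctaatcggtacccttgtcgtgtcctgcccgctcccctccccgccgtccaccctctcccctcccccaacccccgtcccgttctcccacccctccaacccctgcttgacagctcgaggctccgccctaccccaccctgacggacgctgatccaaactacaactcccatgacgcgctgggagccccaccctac
Fis1: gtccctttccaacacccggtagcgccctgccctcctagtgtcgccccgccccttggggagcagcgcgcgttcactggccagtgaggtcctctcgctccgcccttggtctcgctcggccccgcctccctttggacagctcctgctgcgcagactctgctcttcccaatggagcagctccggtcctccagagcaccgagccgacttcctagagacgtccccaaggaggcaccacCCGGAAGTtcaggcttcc
Mfn1: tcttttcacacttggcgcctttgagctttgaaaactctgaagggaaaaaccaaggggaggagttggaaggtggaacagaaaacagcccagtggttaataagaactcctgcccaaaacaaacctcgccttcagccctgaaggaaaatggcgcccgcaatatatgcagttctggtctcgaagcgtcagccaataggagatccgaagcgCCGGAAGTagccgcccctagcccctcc

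RefSeq windows of 300 bases, 250 before and 50 after the start, were found for 6 of the 7 genes (Gdap1 had none). Mfn2 had 3 such windows, and Dnm1l, Mff and Fis1 had 2 each. For each gene only the window nearest its start in the count tables was searched, and its other windows were not. Both strands were searched, with no motif contained in another. The ETS site CCGGAAGT was in the windows of Mfn1, 44 bases before the start, and Fis1, 18 bases before it, and in 3.89% of 32851 RefSeq windows. It was not found in those of Mfn2, Dnm1l, Mff and Mtfp1. The other motifs were found in none of the 6 windows. They were the NRF1 core GCATGCGC (in 2.71% of all windows), the extended ERR site TCAAGGTCA (0.423%), the E-box CACGTG (7.15%), the CRE TGACGTCA (1.79%), GATA as AGATAA (11.2%), the T-box as GGTGTGA (3.98%), the C/EBP-ATF element TTGCATCA (0.895%) and YY1 as AAGATGGCG (1.40%). A match is a run of letters and not a bound site. The 250 upstream bases held 62.0% G and C for Mfn2, 66.8% for Fis1 and 53.6% for Mfn1, against a median of 52.4% over all windows.

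Mfn2 (mm10 chr4:147873595-147904819, minus strand, with 19 exon intervals) is the mitofusin that also serves contact with the reticulum. In shNT it measured 95.2, 94.7 and 115 CPM in replicates 1, 2 and 3, and in shMtfr1l 136, 118 and 122 CPM. In shOpa1 it measured 62.5, 54.5 and 50.8 CPM, and in the double knockdown 78.3, 72.4 and 73.5 CPM. The 4 groups did not overlap. From the highest, their order was shMtfr1l (125 ± 9.48 CPM), shNT (102 ± 11.6), the double knockdown (74.7 ± 3.14) and shOpa1 (56.0 ± 5.98), and each step passed the test.

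Against shNT, Mfn2 was 1.23-fold higher in shMtfr1l (log2 change 0.30 ± 0.08 SE, edgeR quasi-likelihood test with Benjamini-Hochberg adjustment over 14162 genes, adjusted p = 0.00918). It was the only one of the 6 tested members to pass there, where 10.8% of all genes passed, 5.56% with a rise and 5.19% with a fall. For each replicate number the shMtfr1l library lay above the shNT library. The call was lost without shNT replicate 1 (adjusted p = 0.0615), without shNT replicate 2 (0.0786), without shMtfr1l replicate 1 (0.0985) and with day 7 or day 8 left out of every group (0.250 and 0.107), while the log2 change stayed between 0.19 and 0.42.

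Mfn2 was 1.82-fold lower in shOpa1 than in shNT (log2 change -0.86 ± 0.08, adjusted p = 1.36e-10). Its change lay below that of all but 5.80% of genes tested. In the double knockdown it was 1.36-fold lower than in shNT (log2 change -0.44 ± 0.08, adjusted p = 6.18e-05) and 1.68-fold lower than in shMtfr1l (log2 change -0.75 ± 0.08, adjusted p = 4.85e-09). All 3 calls held under every one of 24 other settings, with log2 changes of -0.99 to -0.70 for shOpa1 against shNT.

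Between the groups that both carry shOpa1, Mfn2 was 1.34-fold higher in the double knockdown than in shOpa1 alone (log2 change 0.42 ± 0.08, adjusted p = 0.00111). Of all genes 4.77% passed in that comparison, 2.31% with a rise and 2.46% with a fall, and Mfn2 was the only member among them. The call held under all 24 other settings, with a largest adjusted p of 0.0487. Opa1 itself was higher in the double knockdown than in shOpa1, as given above, and its part in the Mfn2 difference was not tested. The interaction term, which asks whether the log2 changes of the single knockdowns add up in the double knockdown, was 0.12 ± 0.11 for Mfn2 (95% interval -0.12 to 0.35, adjusted p = 0.715). No departure from an additive sum was thus detectable for Mfn2, in an interval that reaches 0.35. Both targets were higher in the double knockdown than in their single knockdowns, so the term does not compare equal depletion. The interaction terms of the targets were 0.78 ± 0.15 for Mtfr1l (edgeR adjusted p = 0.00146) and 0.84 ± 0.25 for Opa1 (0.104).

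The summed level of 13 cardiomyocyte markers took the same order of groups as Mfn2. It was 2878 to 2962 CPM in shNT, 3899.7 to 4234 in shMtfr1l, 1641 to 1858 in shOpa1 and 2239 to 2328 in the double knockdown. Tnnt2, cardiac troponin T, made up most of that sum, at 2003 to 2059 CPM in shNT. Without it the other 12 summed to 839 to 920.3 CPM in shNT, 1492 to 1699.5 in shMtfr1l, 387 to 459.9 in shOpa1 and 641 to 762 in the double knockdown, in the same order. Taken singly, 5 of the 13 had group means in the order of Mfn2 (Tnnt2, Tnni3, Ryr2, Ttn and Myl7) and 8 had another. The share of all genes in that order was not counted. Myh6, Myh7, Actn2, Actc1 and Mb had a higher mean in the double knockdown than in shNT, Pln and Nppa were highest in shNT, and Myl2 was lowest in the double knockdown. Of the 13, 9 rose and 1 fell with shMtfr1l against shNT, and 10 fell with shOpa1. In the double knockdown 2 rose and 6 fell against shNT, 13 fell against shMtfr1l and 6 rose against shOpa1. The fibroblast markers, at 35171 to 38040 CPM in shNT, summed to 34160.3 to 35972 in shMtfr1l, 40005 to 40893 in shOpa1 and 37851 to 40093 in the double knockdown. Col1a1, Col1a2 and Col3a1 made up most of that sum, with shOpa1 means of 13827, 10460 and 9845 CPM. Of the 11 fibroblast markers, 1 rose and 6 fell with shMtfr1l against shNT, where 10.8% of all genes passed. With shOpa1 3 rose and 4 fell (29.4% of all genes passed). In the double knockdown 1 rose and 4 fell against shNT (23.1%). The 9 macrophage and leukocyte markers summed to 298 to 429 CPM in shNT, 150.2 to 558 in shMtfr1l, 264 to 659 in shOpa1 and 632 to 815 in the double knockdown. The 7 epicardial and mesothelial markers summed to 344 to 353 CPM in shNT, 211 to 227 in shMtfr1l, 223 to 279 in shOpa1 and 219.6 to 251 in the double knockdown. The part of any of these cell types' levels in the Mfn2 and Fis1 values was not tested.

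**Figure D2:**
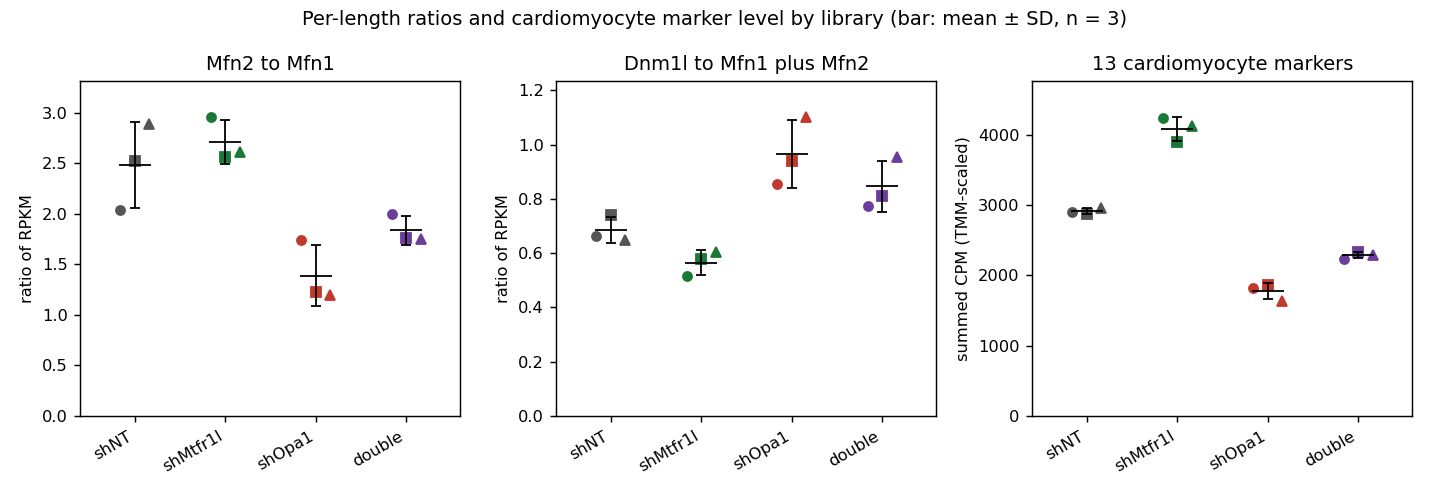
Ratio of Mfn2 to Mfn1 (left) and of Dnm1l to the sum of Mfn1 and Mfn2 (middle), both from RPKM, and the summed CPM of 13 cardiomyocyte markers (right) in the 12 second-set libraries (circles, squares and triangles are replicates 1, 2 and 3; bars are mean ± SD of 3; axes from 0). The Mfn2 to Mfn1 ratio is at most 2.00 in shOpa1 and the double knockdown and at least 2.04 in shNT and shMtfr1l, and the marker sum is highest in shMtfr1l and lowest in shOpa1.

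Mfn1 (chr3:32529482-32579225, plus strand) is the other mitofusin, known for the stronger tethering activity of the pair. It measured 48.4, 38.8 and 41.3 CPM in shNT, 47.6, 47.8 and 48.3 in shMtfr1l, 37.2, 45.8 and 44.0 in shOpa1 and 40.5, 42.7 and 43.3 in the double knockdown. The shMtfr1l libraries all lay above those of the double knockdown, yet this difference did not pass (log2 change -0.18 ± 0.10, 95% interval -0.38 to 0.01, adjusted p = 0.176). Against shNT the log2 change was 0.17 ± 0.10 in shMtfr1l (95% interval -0.03 to 0.36, adjusted p = 0.328) and -0.01 ± 0.10 in shOpa1 (95% interval -0.21 to 0.18, adjusted p = 0.946). The Mfn1 interval for shOpa1 thus lies wholly above that of Mfn2, which runs from -1.03 to -0.70; the difference between the 2 genes was not tested.

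Per length, Mfn2 outweighed Mfn1 in every library. The ratio of their RPKM values was 2.04, 2.53 and 2.89 in shNT and 2.96, 2.56 and 2.61 in shMtfr1l. It was 1.74, 1.23 and 1.20 in shOpa1 and 2.00, 1.76 and 1.76 in the double knockdown. The shNT and shMtfr1l ratios overlapped, and both groups lay above all 6 libraries that carry shOpa1, for which no test was made.

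Dnm1l (chr16:16312228-16359031, minus strand), the GTPase that cuts mitochondria, stayed near 1 level. It measured 92.1, 95.3 and 98.1 CPM in shNT, 91.5, 92.6 and 99.1 in shMtfr1l, 82.1, 90.7 and 100.4 in shOpa1 and 88.7, 89.8 and 107 in the double knockdown, so all 4 groups overlapped. Its log2 change against shNT was -0.01 in shMtfr1l (95% interval -0.17 to 0.14), -0.06 in shOpa1 (-0.22 to 0.09) and 0.00 in the double knockdown (-0.15 to 0.15). The ratio of Dnm1l to the sum of both mitofusins, in RPKM, was 0.684 ± 0.048 in shNT, 0.565 ± 0.045 with shMtfr1l, 0.966 ± 0.126 with shOpa1 and 0.846 ± 0.095 with both. No library of shMtfr1l reached the lowest shNT ratio of 0.649, and all 6 libraries with shOpa1 lay above the highest shNT ratio of 0.739. This ratio is a description with no test.

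Mff (chr1:82724918-82752389, plus strand), the main outer membrane receptor for Dnm1l, measured 102, 92.3 and 92.0 CPM in shNT and 88.4, 88.0 and 104 in shMtfr1l. It measured 92.7, 92.2 and 88.4 CPM in shOpa1 and 92.5, 87.6 and 93.0 in the double knockdown. The groups overlapped in every comparison. Its log2 change against shNT was -0.03 in shMtfr1l (95% interval -0.17 to 0.11), -0.07 in shOpa1 (-0.21 to 0.08) and -0.07 in the double knockdown (-0.21 to 0.08).

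Fis1 (chr5:136953275-136966234, plus strand) is a small tail-anchored outer membrane protein that takes part in fission and in the clearance of damaged mitochondria. It measured 110.1, 102 and 97.6 CPM in shNT and 92.3, 98.4 and 99.8 in shMtfr1l. It measured 77.6, 85.6 and 90.9 CPM in shOpa1 and 82.0, 87.0 and 87.5 in the double knockdown. Every library with shOpa1 thus lay below every library without it. From the highest, the order was shNT (103 ± 6.31 CPM), shMtfr1l (96.8 ± 3.98), the double knockdown (85.5 ± 3.04) and shOpa1 (84.7 ± 6.71), and no step between neighbours passed the test.

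Against shNT, Fis1 was 1.22-fold lower in shOpa1 (log2 change -0.29 ± 0.07, edgeR adjusted p = 0.00157) and 1.21-fold lower in the double knockdown (log2 change -0.27 ± 0.07, adjusted p = 0.00338). Fis1 and Mfn2 were the 2 of 6 tested members to pass in each of these comparisons, which share their shNT libraries. Of all genes, 29.4% passed in shOpa1 against shNT (14.3% with a rise and 15.1% with a fall) and 23.1% in the double knockdown against shNT (11.2% and 11.9%). Of 6 members, 2 is thus near the background share. With day 7 left out of every group both Fis1 calls were lost (adjusted p = 0.0936 and 0.0840, log2 changes of -0.18 and -0.20). Between the double knockdown and shMtfr1l the groups did not overlap, yet the difference missed the threshold (log2 change -0.18 ± 0.07, adjusted p = 0.0646). In that comparison Mfn2 was the only member called, where 21.5% of all genes passed, 9.72% with a rise and 11.7% with a fall.

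**Figure D3:**
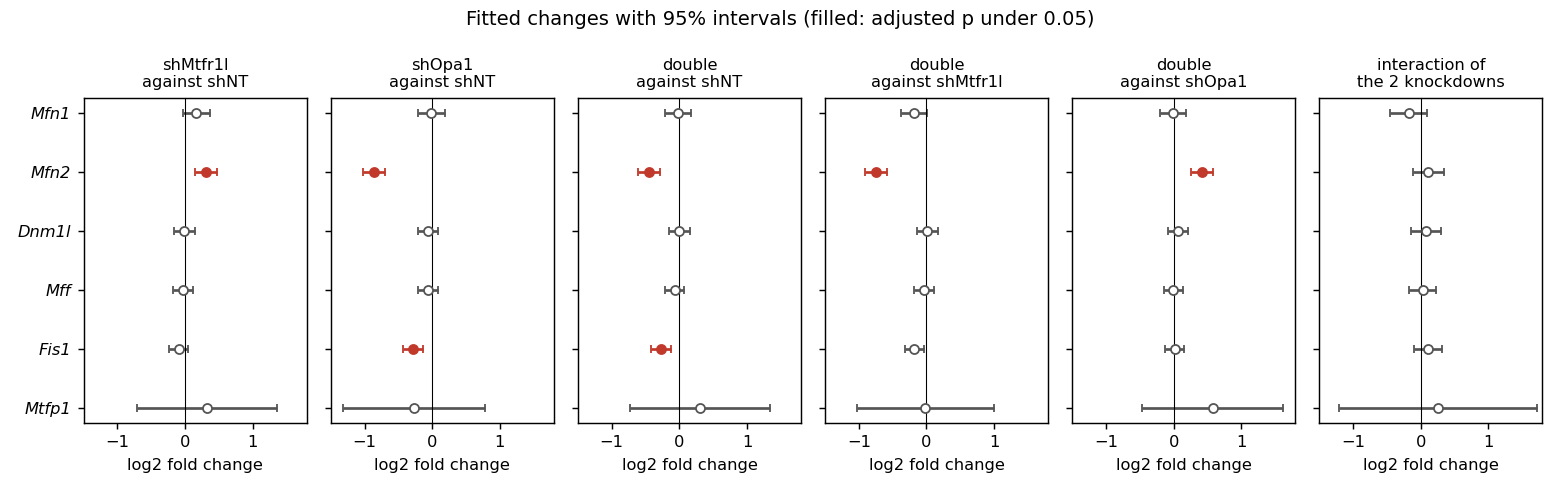
Fitted log2 fold change (horizontal axis) of the 6 tested genes in the 5 comparisons and the interaction term of the second set, with 95% intervals; filled red points passed an adjusted p of 0.05 in edgeR. Mfn2 is filled in all 5 comparisons and Fis1 in shOpa1 and the double knockdown against shNT, while the intervals of Mfn1, Dnm1l, Mff and Mtfp1 include 0 in every panel.

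Mtfp1 (chr11:4091481-4095431, minus strand), an inner membrane protein of fission, was scarce, with 17 to 45 counts per library. It measured 1.77, 1.16 and 1.18 CPM in shNT, 2.08, 0.993 and 2.03 in shMtfr1l, 1.53, 0.999 and 0.859 in shOpa1 and 1.87, 1.28 and 1.92 in the double knockdown. The groups overlapped, and the 95% interval of the log2 change of shOpa1 against shNT ran from -1.32 to 0.78. A change of 2-fold in either direction was therefore close to or within what these counts leave undecided.

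Gdap1 (chr1:17145373-17164270, plus strand), an outer membrane protein known chiefly from nerve, was at the limit of detection. Its counts were 4, 2 and 22 in shNT, 2, 0 and 6 in shMtfr1l, 4, 0 and 4 in shOpa1 and 4, 8 and 2 in the double knockdown. The 22 counts of shNT replicate 3 (1.04 CPM) stand apart, and the other 11 libraries held at most 8. A count of 0 allows up to 0.175 CPM in shMtfr1l replicate 2 and 0.143 CPM in shOpa1 replicate 2. No fold change is given. Of 11 neuron and Schwann cell markers, 1 or 2 held at most 3 counts over the 3 libraries of a group.

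Over the 6 tested members the median log2 change was 0.08 in shMtfr1l against shNT, -0.17 in shOpa1, -0.04 in the double knockdown, and -0.11 and 0.04 for the double knockdown against shMtfr1l and shOpa1. The median over all genes tested was 0.00 or 0.01 in these comparisons. In the interaction, edgeR called 0 of 6 members, where 3.56% of all genes passed, and none of the 6 had an unadjusted p under 0.05. DESeq2 and limma-voom also called 0.

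In the first set, 7 of 7 members passed its own filter, and the shMtfr1l sample was the higher of the pair for 6 of them. Mfn2 stood at 132 to 141 CPM in the 3 count columns of shNT and at 173 to 186 CPM in those of shMtfr1l, a ratio of 1.31 between the summed samples (137 and 179.5 CPM). Dnm1l stood at 93.0 to 106 and 122 to 126 CPM (ratio 1.23), Mfn1 at 49.3 to 53.6 and 56.8 to 63.0 CPM (1.18) and Mff at 88.5 to 94.8 and 107 to 111 CPM (1.17). The columns of these 4 genes did not overlap. Fis1 did overlap, at 64.8 to 73.8 and 72.2 to 83.1 CPM (1.09), as did Mtfp1, with 82 and 110 counts in all (1.38). The columns come from 1 sample per condition, and the share of all genes without overlap was not counted. The log2 ratios of the 4 genes lay above those of 78.7% (Mff) to 88.4% (Mfn2) of 15198 genes. Gdap1 held 31 counts in shNT and 20 in shMtfr1l, a ratio of 0.662 whose counting interval of 0.358 to 1.20 includes no change.

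Mtfr1l itself was at 79.2 CPM in that shNT sample and 8.73 CPM in that shMtfr1l sample, lower than in shMtfr1l of the second set, though the tables were scaled apart. The members' median log2 ratio was 0.23, beside 0.00 over 15198 genes. Mfn2 was higher in shMtfr1l in both sets, by 1.31-fold without a test in the first and by 1.23-fold in the second. Dnm1l and Mff were higher in shMtfr1l in the first set, while their fitted log2 changes in the second were -0.01 and -0.03, and this difference between the sets was not tested. With 1 sample per condition, the first-set ratios carry no replicate check, and counting intervals are too narrow since each mate of a read pair was counted.

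The genes most like each member over the 12 second-set libraries, by Pearson's r of log2 CPM among 12142 genes, are given as a description, since the libraries share their groups. For Mfn2 they were Fbxl22 (r = 0.99) and Pgrmc2 (0.99), and for Fis1 Gm14403 (0.94) and Haus7 (0.94). For Mfn1 they were Atg4b (0.92) and Zcrb1 (0.87), for Dnm1l Dcp1b (0.91) and Thap2 (0.88), for Mff Ppie (0.96) and Eri2 (0.92), and for Mtfp1 Spata2l (0.88) and Garnl3 (0.79). Between members, the r of Mfn2 with Fis1 was 0.60 and with Mfn1 0.38.

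The members' partners were counted in lists of genes, beside the shares of all genes given above. Of 9 tested Dnm1l adaptors and other fission genes, 3 rose and 1 fell with shOpa1 against shNT, where 29.4% of all genes passed (14.3% with a rise and 15.1% with a fall). Spire1, an actin nucleator that acts with formins at mitochondria, rose 1.91-fold (6.73 ± 1.28 to 12.8 ± 1.48 CPM, adjusted p = 0.000443). Pgam5, a mitochondrial phosphatase that acts on Dnm1l, rose 1.26-fold (39.7 ± 1.47 to 50.2 ± 1.00 CPM, adjusted p = 0.00478), and Mtfr1, a relative of Mtfr1l, rose 1.22-fold (38.0 ± 1.00 to 46.4 ± 1.97 CPM, adjusted p = 0.0156). Inf2, the formin partner of Spire1, was 1.24-fold lower (77.5 ± 2.38 to 62.7 ± 6.51 CPM, adjusted p = 0.00341). In the double knockdown only Spire1 passed against shNT (1.68-fold higher, edgeR adjusted p = 0.0058), where 23.1% of all genes passed. Against shMtfr1l, 3 rose in the double knockdown, where 9.72% of all genes passed with a rise. They were Pgam5 (1.36-fold, edgeR adjusted p = 0.000474), Spire1 (1.46-fold, 0.049) and Mief1, a Dnm1l receptor listed in the files under an older symbol (31.7 ± 2.18 to 39.5 ± 4.79 CPM, adjusted p = 0.0312). DESeq2 and limma-voom each called 2 of the 9 genes there.

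With shMtfr1l against shNT, edgeR called 0 of those 9 genes, with 2 at an unadjusted p under 0.05, 1 called by DESeq2 and 0 by limma-voom. The double knockdown against shOpa1 also gave 0 of 9, with 1 at an unadjusted p under 0.05 and 0 by either other tool. In the interaction Inf2 passed (log2 0.43 ± 0.11, adjusted p = 0.0253): its mean was 65.9 CPM in shMtfr1l and 71.8 in the double knockdown.

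Among 22 tested modifiers of mitofusins and Dnm1l (ligases, kinases, phosphatases and proteases), 3 rose and 4 fell with shOpa1 against shNT, a share near the 29.4% of all genes. Senp5, a SUMO protease that acts on Dnm1l, rose 1.33-fold (79.7 to 106 CPM, adjusted p = 6.54e-06). Pink1, the kinase that marks damaged mitochondria, was 1.20-fold lower (112 ± 5.91 to 93.3 ± 5.37 CPM, adjusted p = 0.0014), and the kinases Rock1 and Camk1 were also lower (Camk1 by a factor of 1.24, adjusted p = 0.000325). In the double knockdown 2 rose and 5 fell against shNT (23.1% of all genes passed), among them Usp30, a deubiquitinase of the outer membrane, at 1.33-fold higher (adjusted p = 0.00425). With shMtfr1l only March5, the outer membrane ubiquitin ligase that acts on mitofusins, passed, at 1.19-fold higher (66.0 ± 1.88 to 78.6 ± 3.83 CPM, adjusted p = 0.0308).

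Of 17 tested genes of mitochondrial transport and tethering, 4 rose and 4 fell with shOpa1 against shNT, beside 29.4% of all genes. Kif5b, the kinesin that carries mitochondria along microtubules, was 1.64-fold lower (603 ± 22.6 to 368 ± 9.87 CPM, adjusted p = 1.23e-14). Armcx2 was 1.42-fold, Armcx1 1.33-fold and Armcx3 1.31-fold lower, members of a family tied to mitochondrial transport. Kif5b also took the Mfn2 order of means, as did, among other list genes, Armcx3, Cpt1a, Vdac3, Pink1, Rock1 and Opa1 itself. The share of all genes in that order was not counted. Kif5b stood at 634 CPM in shMtfr1l and 430.5 in the double knockdown, and it was 1.17-fold higher in the double knockdown than in shOpa1 (edgeR adjusted p = 0.00263). With shMtfr1l it did not pass against shNT, where only Armcx2 did (1.19-fold lower, adjusted p = 0.00542).

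Among 20 other outer membrane proteins, 7 rose and 3 fell with shOpa1 against shNT, beside 14.3% of all genes with a rise and 15.1% with a fall. Tomm70a and Tomm40, of the protein import complex, rose 1.37-fold and 1.34-fold (adjusted p = 3.18e-06 and 3.11e-05), and Mavs, the antiviral signalling adaptor, rose 1.48-fold (adjusted p = 0.000153). Cpt1a, the enzyme that admits long-chain fatty acids, was 1.70-fold lower (140 ± 13.2 to 82.0 ± 2.81 CPM, adjusted p = 1.02e-11). Of the 10 tested genes of inner membrane fusion and Opa1 processing, a list that holds both targets, 2 rose and 2 fell with shOpa1 (29.4% of all genes passed), Opa1 among the latter. Afg3l2 and Stoml2 rose 1.27-fold and 1.26-fold, and Yme1l1, a protease that cuts Opa1, was 1.13-fold lower (adjusted p = 0.0466). With shMtfr1l only Mtfr1l itself passed in that list.

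**Figure D4:**
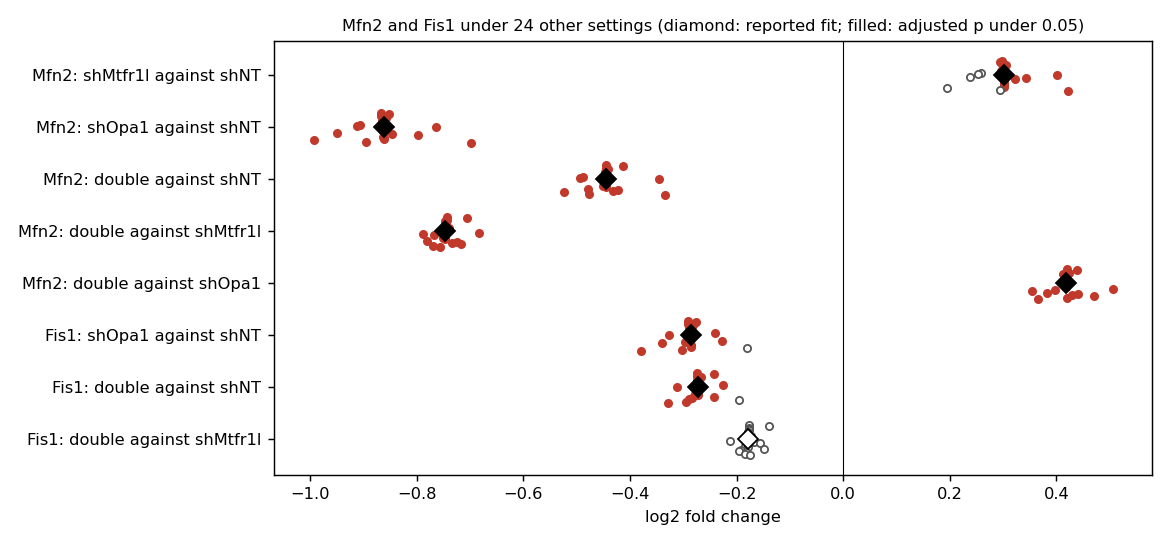
Log2 fold change (horizontal axis) of Mfn2 in 5 comparisons and of Fis1 in 3, as reported (diamond) and under 24 other settings each (circles, spread vertically for view); filled marks have an adjusted p under 0.05. Mfn2 with shMtfr1l against shNT is open in 5 settings and Fis1 against shNT in 1 each, no mark crosses 0, and Fis1 in the double knockdown against shMtfr1l is open throughout.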

How the data were processed

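Bulk RNA was sequenced from reprogramming fibroblasts. The authors deposited raw gene counts made with featureCounts 2.0.6 on the UCSC annotation of mm10, strand-specific and with each mate of a pair counted by itself, per the file headers. Which aligner ran is not given in the sources used. The submitters' processing notes name FastQC and DESeq2. The 12 count columns of the fibroblast samples could not be tied to their labels, and those samples are not analysed here.

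Counts of the 12 second-set libraries were scaled with TMM, filtered with filterByExpr (14162 of 23420 genes kept) and compared with edgeR 4.0.16 in R 4.3.3 (quasi-likelihood test with a robust estimate of the spread, 1 coefficient per group, 8 residual degrees of freedom, Benjamini-Hochberg adjustment, called under 0.05). The common biological coefficient of variation was 12.04%. CPM and RPKM use TMM-scaled totals and the gene lengths of the files, and intervals are at 95%. In a check for copies, chi-square per gene between replicates was 5.37 to 10.29. The fit was also run on simulated counts with known changes, drawn with 1 common spread for all genes, unlike the data. Its outcome is not reported here.

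Titles tie each replicate number to a day shared by all groups, which would pair the libraries. Over the 18 same-numbered pairs the correlation of deviations from group means ran from -0.19 to 0.12. A replicate block was fitted as an alternative. The others were DESeq2 1.42.0 size factors or Wald test, limma-voom 3.58.1, no TMM, no filter, no robust estimate (added after seeing the data), counts divided by 2, the compared groups alone, and leaving out each library or day.

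The members and gene lists were chosen with earlier results of these data known. Of 147 list genes 146 were found, some under older symbols. The genes named are the 7 members, both targets, up to 4 called genes per list and comparison with the smallest adjusted p, and the 2 genes most correlated with each member (mean of at least 2 CPM). Counting intervals and the level of 3 counts cover counting error alone.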

Additional observations from a re-analysis of the deposited data

How the results depend on the processing

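Counts of called genes stayed within 1.5 times the reported ones under all scalings, tools, filters and fits. With the replicate block they were 1387, 4003, 3071, 2846, 576 and 411, for shMtfr1l and shOpa1 against shNT, the double knockdown against shNT, shMtfr1l and shOpa1, and the interaction, beside 1523, 4164, 3270, 3041, 675 and 504 without it, and the block changed no call of a member. Leaving out 1 library or 1 day gave 790 to 1574, 3020 to 4228, 2185 to 3415, 1964 to 3187, 199 to 738 and 161 to 539 calls in the same order. The lowest count came without day 7 for shMtfr1l against shNT and the double knockdown against shMtfr1l, and without day 8 for the double knockdown against shOpa1 (199) and the interaction (161). Without day 8, shMtfr1l against shNT gave 878. The double knockdown against shOpa1 gave 416 without shOpa1 replicate 2, 449, 409 and 423 without double knockdown replicates 1, 2 and 3, and 370 without day 7, and the interaction 222 without day 7. Fewer libraries enter each of these fits. Over the 6 tested members and 858 alternative values, 851 stayed on their side of the threshold and 7 lost the call in the same direction (given with Mfn2 and Fis1), and no called change reversed. The per-length ratios were the same from TPM. Depth limited Mtfp1 and Gdap1 alone.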
